A study of Mus musculus with 2 samples.

Results

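The genes described here are the secreted and membrane-bound metalloproteases of the extracellular matrix and their tissue inhibitors, measured in embryonic mouse limb. They were taken by symbol: every protein-coding gene row named Mmp, Adamts, Adamtsl or Timp with a number, which gave 50 of the 21474 protein-coding gene rows. The 50 were 22 Mmp, 19 Adamts, 5 Adamtsl and 4 Timp genes. Mmp1a also matched the symbol pattern, but it is annotated as a polymorphic pseudogene, had 0 counts in both libraries and was left out.

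Polyadenylated RNA of limb tissue from C57BL/6J mouse embryos at 14.5 days was sequenced in 2 libraries, each made from a separate biosample of pooled littermates of both sexes. The pair forms the only group, carries no treatment and no engineered allele, and both biosamples are derived from the same donor identifier. The labels name neither the limbs dissected (fore or hind) nor the litters behind each pool. A p-value here sets the difference between 2 genes against the spread between these 2 samples, and that spread may be technical. With only 2 libraries, most of the information on the spread is borrowed from the other genes in the fit. Such a p-value therefore cannot be read as a measure of spread among litters. What the data allow is the level of each gene, the contrast of chosen genes within the tissue, and the difference between the libraries.

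Matrix metalloproteinases (Mmp) are zinc-dependent enzymes, made as inactive precursors, that cut collagens and other matrix proteins, either after secretion or while anchored in the cell membrane. Adamts proteases are secreted relatives with thrombospondin repeats that trim procollagens and cut the large proteoglycans of cartilage and skin, whereas Adamts-like (Adamtsl) proteins have the repeats without the catalytic domain. Tissue inhibitors of metalloproteinases (Timp) bind the active site, and in the growing limb this system is known for opening a path through calcified cartilage and for shaping joints, tendon and interdigital tissue.

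Levels are the deposited TPM (a transcript abundance corrected for length, with the same sum over all transcripts in each library), and each pair of values is given in the order replicate 1, replicate 2. The libraries held 110172148 and 103363136 estimated counts in mouse gene rows, so a gene without a count may still stand at up to 3 counts, or 0.0272 and 0.0290 CPM (counts relative to the library total, with no length correction). Such floors and the counting intervals below cover counting error only. All 50 genes had whole estimated counts to within 0.005, which does not exclude reads shared with other genes. The labelled tissue was checked by markers, counted where they reached 1 TPM in both libraries. These were 5 of 5 chondrocyte, 5 of 5 hypertrophic cartilage and 3 of 3 tendon markers. So were 3 of 3 muscle, 4 of 4 epidermis and 3 of 4 osteoblast markers, with Bglap at 0.79 and 0.82 TPM. Of 3 markers of enamel-forming cells, a cell type of teeth, Amelx had 0 counts in both, Enam 9 and 18, and Ambn 205 and 149 (1.66 and 1.31 TPM). In whole tissue, fewer cells of a type and less RNA per cell cannot be told apart.

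Of the 22 Mmp genes, 9 lie side by side on chromosome 9 and 8 of these 9 stayed under 1 TPM in both libraries. The upstream sequences of 4 of the 9 are printed here, since the cluster and the other members differ in the motifs they hold. The 250 bases before the transcription start come from RefSeq on GRCm38.p6, which held an entry for 35 of the 50 genes; without one were Mmp2, Mmp9, Mmp16, Mmp17, Mmp19, Adamts4, Adamts5, Adamts6, Adamts7, Adamts8, Adamts10, Adamts15, Adamts16, Adamts19 and Adamtsl1. Capitals mark a match to the AP-1 motif, spelled TGAGTCA or, as its other strand, TGACTCA, and to TATAAA searched on the gene's own strand. These are the upstream windows of a collagenase, Mmp13, of the stromelysins Mmp3 and Mmp10, and of Mmp8, a cluster gene that holds neither motif.
Mmp13, chr9:7272264-7272513, plus strand: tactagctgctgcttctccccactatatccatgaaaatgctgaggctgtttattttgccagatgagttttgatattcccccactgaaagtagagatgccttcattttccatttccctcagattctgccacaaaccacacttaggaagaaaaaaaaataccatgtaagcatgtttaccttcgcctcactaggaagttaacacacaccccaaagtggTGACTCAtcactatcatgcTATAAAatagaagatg
Mmp3, chr9:7445572-7445821, plus strand: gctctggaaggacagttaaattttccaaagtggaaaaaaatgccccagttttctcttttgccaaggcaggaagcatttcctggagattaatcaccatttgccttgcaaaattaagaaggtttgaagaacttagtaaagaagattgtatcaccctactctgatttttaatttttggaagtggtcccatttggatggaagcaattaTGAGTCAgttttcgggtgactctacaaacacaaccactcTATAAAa
Mmp10, chr9:7502092-7502341, plus strand: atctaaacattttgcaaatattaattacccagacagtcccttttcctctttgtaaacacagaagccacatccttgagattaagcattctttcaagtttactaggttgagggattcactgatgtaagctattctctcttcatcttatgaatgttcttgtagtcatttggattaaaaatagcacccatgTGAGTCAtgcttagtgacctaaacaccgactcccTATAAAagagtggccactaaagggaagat
Mmp8, chr9:7558179-7558428, plus strand: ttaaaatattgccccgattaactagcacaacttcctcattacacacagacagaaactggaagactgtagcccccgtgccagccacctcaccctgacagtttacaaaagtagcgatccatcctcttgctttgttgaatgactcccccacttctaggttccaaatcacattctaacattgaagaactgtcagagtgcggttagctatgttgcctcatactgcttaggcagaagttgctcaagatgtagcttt
For comparison, these are the windows of the 2 Mmp genes outside the cluster with the highest TPM among those with an entry, Mmp14 and Mmp11, which hold neither motif and so carry no capitals.
Mmp14, chr14:54431348-54431597, plus strand: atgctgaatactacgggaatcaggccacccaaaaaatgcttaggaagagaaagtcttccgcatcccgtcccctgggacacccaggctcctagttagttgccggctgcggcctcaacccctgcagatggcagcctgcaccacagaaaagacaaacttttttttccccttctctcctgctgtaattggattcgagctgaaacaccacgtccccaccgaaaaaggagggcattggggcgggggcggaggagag
Mmp11, chr10:75932503-75932752, minus strand: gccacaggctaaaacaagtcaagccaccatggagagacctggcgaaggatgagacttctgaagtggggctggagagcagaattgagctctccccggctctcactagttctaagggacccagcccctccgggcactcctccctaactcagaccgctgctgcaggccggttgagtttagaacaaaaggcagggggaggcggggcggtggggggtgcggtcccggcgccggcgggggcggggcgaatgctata

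An AP-1 match stood upstream of 6 of the 9 cluster genes, Mmp13, Mmp12, Mmp1b, Mmp3, Mmp10 and Mmp7, and of none of Mmp8, Mmp27 and Mmp20. A gene with 2 entries, as Mmp12, Mmp7 and Mmp23 have, counts if either window holds the motif. None of the 26 other members with an entry had one, against 5.16% of the 27025 genes in the table (4.46% of its 32851 windows). The match began 35 bases before the start in Mmp13, 46 in Mmp3 and 63 in Mmp10. TATAAA stood in 6 of the 9 cluster genes and in 3 of the 26 others, Adamts1, Adamtsl2 and Mmp21, against 8.94% of genes (7.59% of windows). A Runx match, spelled TGTGGT or ACCACA and not capitalised above, stood in 4 of the 9 and in 2 of the 26, Mmp14 and Mmp23, against 15.9% of genes (14.0% of windows). In Mmp7, 1 of the 4, the match lay only in the window chr9:7692091-7692340, which falls inside the annotated gene. Of the 38 windows of members, 33 are followed by bases found in an annotated transcript of the gene, and this window is not. None of these motifs overlaps another in the windows printed. A match is a stretch of letters and not a measured binding site, and these RNA data hold no measure of binding.

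Of the 50 genes, 37 (74%) were detected, meaning at least 1 TPM in both libraries, beside 62.8% of all protein-coding gene rows. The families differed in this count: 4 of 4 Timp, 5 of 5 Adamtsl and 18 of 19 Adamts genes were detected, against 10 of 22 Mmp genes. At 100 TPM or more in both libraries stood 5 genes (10%), beside 5.81% of protein-coding rows, and at 10 TPM or more stood 20 (40%), beside 41.7%. The median of the mean TPM was 7.53 over the 50 genes and 5.84 over all protein-coding rows. Summed TPM was 818 and 948 for Mmp, 415 and 499.8 for Adamts, 55.8 and 69.5 for Adamtsl, and 227 and 259 for Timp. A few genes held most of it: the 3 highest, Mmp14, Mmp2 and Mmp11, made up 48.6% and 48.3% of the TPM of all 50, and with Adamts10 the share was 60.8% and 61.3%.

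**Figure D1:**
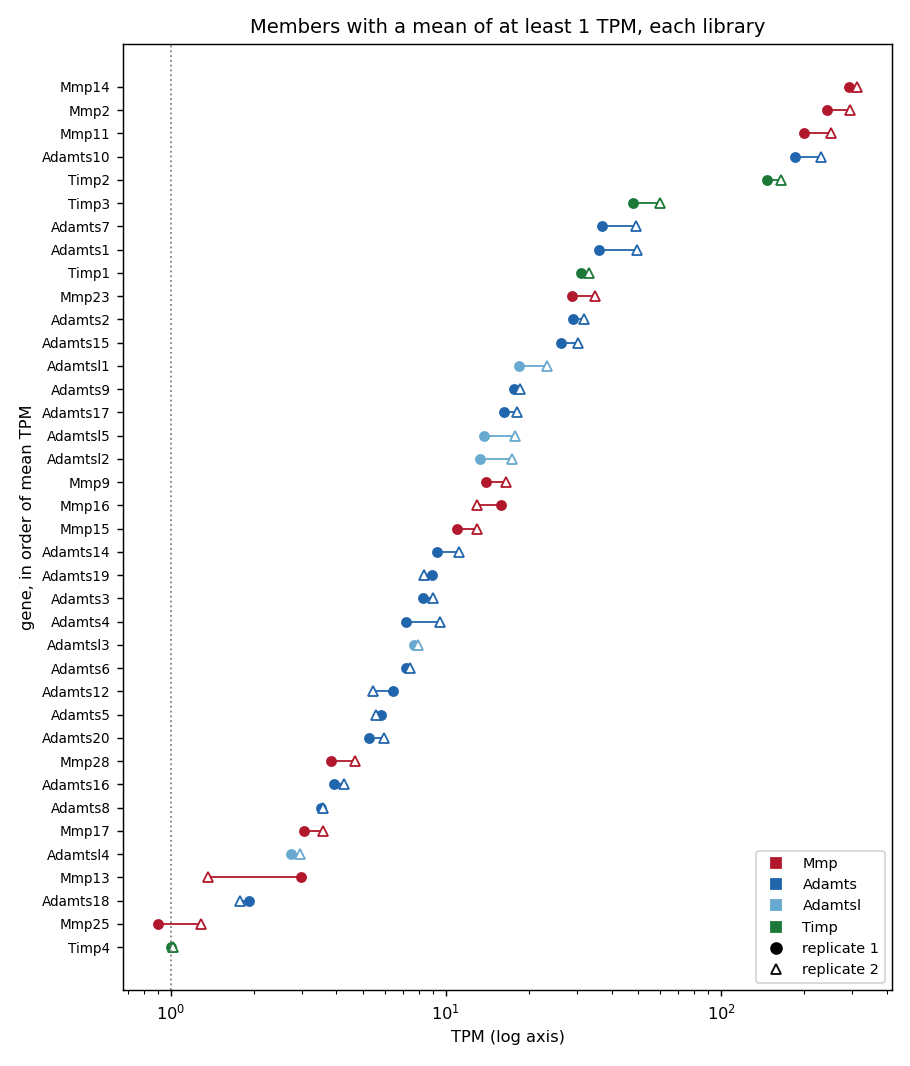
Deposited TPM on a log axis of the 38 members averaging 1 TPM or more, 1 row per gene in order of the mean; filled circles are replicate 1, open triangles replicate 2, colours the family, and the dotted line is 1 TPM. The 5 highest genes stand above 100 TPM in both libraries, clear of Timp3 at 47.8 and 60.1 TPM, and Mmp13 has the widest gap between the libraries.

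Among the membrane-type enzymes, Mmp14, the main cell-surface collagenase and activator of Mmp2, was the highest of all members at 293 and 313 TPM (303 ± 14.5, SD, n = 2), rank 362 among protein-coding genes. The other transmembrane members were far lower: Mmp16 stood at 15.8 and 13.0 TPM and Mmp15 at 11.0 and 13.0 TPM. Mmp24, known from the nervous system, stood at 0.25 and 0.36 TPM on 70 and 60 counts. The membrane-type enzymes held by a lipid anchor were low too, with Mmp17 at 3.05 and 3.59 TPM and Mmp25 at 0.90 and 1.29 TPM, the only member that reached 1 TPM in just 1 library. On the log2(TPM + 1) scale Mmp14 exceeded Mmp15 by 4.56 (SE 0.20, limma, adjusted p = 7.96e-06), Mmp16 by 4.31 (SE 0.20, limma, adjusted p = 9.73e-06) and Mmp24 by 7.87 (SE 0.21, limma, adjusted p = 1.92e-06). Coding transcripts alone put Mmp14 above Mmp16 by 5.15, and a pseudocount of 0.1 put it above Mmp24 by 9.56.

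The gelatinases cut denatured collagen and basement membrane. Mmp2 stood at 244 and 293 TPM (269 ± 35.2, SD, n = 2), rank 427 among protein-coding genes. Mmp9, the gelatinase of osteoclasts and other blood-derived cells, stood at 14.0 and 16.6 TPM, and Mmp2 exceeded it by 4.05 on the log2(TPM + 1) scale (SE 0.21, limma, adjusted p = 1.28e-05). Mmp14 and Mmp2, activator and target, were not separated: the difference was 0.18 (95% interval -0.39 to 0.75, limma, adjusted p = 0.458). The lower Mmp14 library lay just under the higher Mmp2 library, although Mmp14 was higher within each library. Of the osteoclast markers, 2 of 7 were detected, Ctsk at 54.6 and 44.1 TPM and Acp5 at 18.0 and 17.0 TPM. Summed TPM was 74.7 and 63.8 over all 7 osteoclast markers, 66.3 and 78.3 over 5 macrophage markers and 28.1 and 44.7 over 5 neutrophil markers. The part of these cells in the Mmp9 level was not tested.

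Mmp11, called stromelysin-3 and activated inside the cell by furin, was the highest member outside these groups at 199.6 and 251 TPM (225 ± 36.3, SD, n = 2). The other stromelysins, which share the name but cut a broader set of substrates, were at or near 0: Mmp3 stood at 0.13 and 0.05 TPM on 16 and 6 counts, and Mmp10 at 0.04 and 0.03 TPM on 4 and 3 counts. Mmp11 exceeded Mmp3 by 7.69 on the log2(TPM + 1) scale (SE 0.22, limma, adjusted p = 1.92e-06), a scale that understates the difference for a gene this low (10.2 with a pseudocount of 0.1). Mmp23, a small membrane-bound enzyme without the haemopexin domain, stood at 28.8 and 34.9 TPM and below Mmp11 by 2.78 (log2 difference -2.78, SE 0.21, limma, adjusted p = 6.69e-05). With coding transcripts alone the difference was -4.19. Mmp28, called epilysin, stood at 3.82 and 4.67 TPM.

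Collagenases are named for cutting intact fibrillar collagen, and the 3 secreted enzymes classed here under that name were low. Mmp14, the cell-surface collagenase counted above with the membrane-type enzymes, was by contrast the highest member at 293 and 313 TPM. Mmp13, the collagenase of hypertrophic cartilage and early bone, stood at 2.97 and 1.37 TPM on 552 and 234 counts. Mmp8, the collagenase of neutrophils, stood at 0.15 and 0.28 TPM on 26 and 44 counts, and Mmp1b had 0 counts in both libraries. Mmp13 exceeded Mmp8 by 1.34 on the log2(TPM + 1) scale (SE 0.24, limma, adjusted p = 0.00295) and lay below Mmp9 (log2 difference -2.40, SE 0.24, limma, adjusted p = 0.000194). The scale understates the difference from Mmp8 as well: it was 2.79 with a pseudocount of 0.1, and without a filter on low genes the call ended (limma, adjusted p = 0.0742). In the same libraries the fibrillar collagens stood among the highest genes, Col2a1 at 1369 and 1622 TPM, Col1a1 at 1181 and 1283 TPM and Col3a1 at 1262 and 906 TPM.

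The chromosome 9 cluster runs from 7272514 to 7699585 on mm10 (427 kb), and all 9 protein-coding genes annotated within it are Mmp members. Of these, 8 stayed under 1 TPM in both libraries, and Mmp13 at its outer end was the exception. Together they had 606 and 291 counts, of which Mmp13 took 91.1% and 80.4%. Beside the counts given above, Mmp12, the elastase of macrophages, had 2 and 3 counts, Mmp27 had 6 and 0, and Mmp7, the matrilysin of epithelia, had 0 and 1. Mmp20, the enamel protease, had 0 in both. Mmp12 and Mmp1b share 157 exon bases on opposite strands. The macrophage markers, by contrast, were detected in 5 of 5 cases with a summed TPM of 66.3 and 78.3, while Mmp12 stood at 0.02 and 0.04 TPM.

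**Figure D2:**
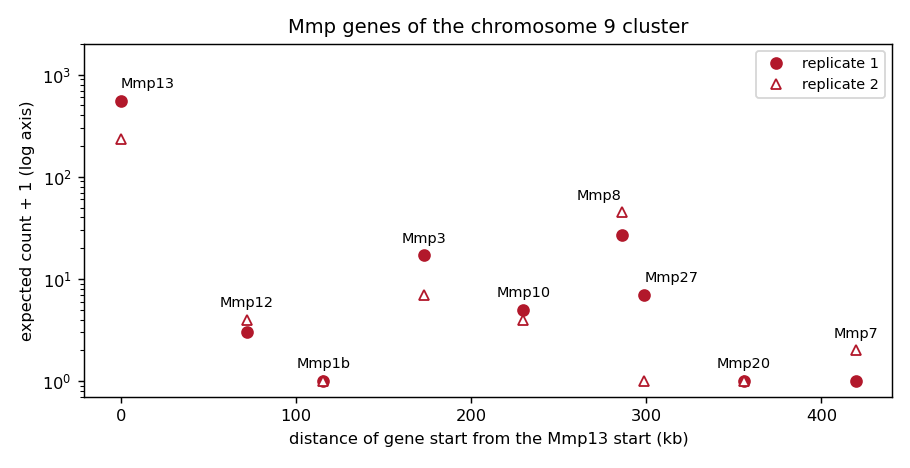
Estimated counts plus 1 on a log axis for the 9 Mmp genes of the chromosome 9 cluster against the distance of each gene start from that of Mmp13 in kb; filled circles are replicate 1 and open triangles replicate 2. Mmp13 at 552 and 234 counts stands above all others in both libraries, and Mmp8 at 26 and 44 counts comes next.

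The members outside the cluster that stayed under 1 TPM in both libraries were Mmp19 at 0.96 and 0.90 TPM, Mmp24 as given above, Mmp21 with 0 and 6 counts, and Adamts13 with 7 and 1 counts. Adamts13, the von Willebrand factor protease made mainly in liver, was the only Adamts gene below the limit. Mmp19 shares 789 exon bases with Tmem198b on the opposite strand, and Mmp24 shares 637 with BC029722.

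The Adamts genes that trim procollagen were all detected. Adamts2, the principal procollagen N-proteinase of skin, stood at 29.0 and 31.7 TPM, Adamts14 at 9.26 and 11.2 TPM and Adamts3, which also processes a lymphatic growth factor, at 8.28 and 8.96 TPM. Adamts2 exceeded Adamts3 by 1.70 (SE 0.17, limma, adjusted p = 0.000195) and Adamts14 by 1.49 (SE 0.18, limma, adjusted p = 0.000425) on the log2(TPM + 1) scale. Bmp1, the protease that removes the other end of procollagen, stood at 199.6 and 236 TPM, and its enhancer Pcolce at 222 and 268 TPM.

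The proteoglycan-cutting Adamts genes were 7 of 7 detected. Adamts1 was the highest at 36.0 and 49.5 TPM (42.7 ± 9.57, SD, n = 2), followed by Adamts15 at 26.3 and 30.3 TPM and by Adamts9 at 17.6 and 18.6 TPM. The aggrecanases known from osteoarthritis were lower, Adamts4 at 7.17 and 9.54 TPM and Adamts5 at 5.79 and 5.56 TPM. Adamts5 lay 0.48 below Adamts4 on the log2(TPM + 1) scale (log2 difference -0.48, SE 0.18, limma, adjusted p = 0.0451). This call ended without a filter on low genes (limma, adjusted p = 0.122) and with coding transcripts alone (limma, adjusted p = 0.128). The difference itself stayed at -0.48 in both settings, on 1.68 and 2.67 degrees of freedom in place of 5.38. Coding transcripts held 100% of the TPM of both genes. Adamts20, a versican-cutting relative of Adamts9 known from pigment cell spread and interdigital web loss, stood at 5.26 and 5.96 TPM. Adamts9 exceeded it by 1.53 (SE 0.17, limma, adjusted p = 0.000288). Adamts8 was the lowest of the 7 at 3.52 and 3.59 TPM.

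Genes of this group lie in 2 neighbouring pairs, with no coding gene between them. Adamts1 and Adamts5 are 53.1 kb apart on chromosome 16, on the same strand, and Adamts1 was higher by 2.70 on the log2(TPM + 1) scale (SE 0.20, limma, adjusted p = 5.92e-05). Adamts15 and Adamts8 start in opposite directions 20.1 kb apart on chromosome 9, and Adamts15 was higher by 2.68 (SE 0.17, limma, adjusted p = 3.62e-05). In both pairs the libraries of the higher gene lay clear of those of the lower.

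Of the remaining Adamts genes, Adamts10, which acts on fibrillin microfibrils and is mutated in a short-stature syndrome, was the highest at 186 and 231 TPM (208 ± 31.6, SD, n = 2). Its closest relative Adamts6 stood at 7.17 and 7.40 TPM, lower by 4.65 on the log2(TPM + 1) scale (SE 0.20, limma, adjusted p = 7.96e-06). Adamts7, which cuts the cartilage protein Comp, stood at 36.8 and 49.0 TPM, and its relative Adamts12 at 6.42 and 5.44 TPM, lower by 2.65 (SE 0.20, limma, adjusted p = 5.92e-05), or by 1.99 with coding transcripts alone. Adamts17, linked to the same syndrome as Adamts10, stood at 16.2 and 18.1 TPM and Adamts19 at 8.93 and 8.35 TPM. Adamts16 stood at 3.93 and 4.25 TPM and its relative Adamts18 at 1.93 and 1.78 TPM. These smaller differences, 0.91 for Adamts17 over Adamts19 and 0.83 for Adamts16 over Adamts18, passed as well (limma, adjusted p = 0.00295 and 0.00455).

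All 5 Adamts-like genes were detected. Adamtsl1 was the highest at 18.4 and 23.3 TPM, followed by Adamtsl5 at 13.7 and 17.9 TPM and Adamtsl2, mutated in a skeletal dysplasia, at 13.4 and 17.5 TPM. Adamtsl3 stood at 7.65 and 7.89 TPM and Adamtsl4, a fibrillin-binding protein of the lens zonule, at 2.73 and 2.94 TPM. Adamtsl2 and Adamtsl1 were not separated by the test (log2 difference -0.42, 95% interval -0.91 to 0.08, limma, adjusted p = 0.0869), although Adamtsl2 was lower in each library. Adamtsl4 lay 2.12 below Adamtsl5 (log2 difference -2.12, SE 0.18, limma, adjusted p = 0.000105). With coding transcripts alone that difference was -0.06 (adjusted p = 0.839) and changed sign between the libraries.

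All 4 inhibitors were detected. Timp2, which both inhibits Mmp2 and helps Mmp14 to activate it, was the highest at 147 and 165 TPM (156 ± 12.9, SD, n = 2). Timp3, the matrix-bound inhibitor that also blocks aggrecanases, stood at 47.8 and 60.1 TPM and Timp1 at 30.9 and 33.1 TPM. Timp4, known from the heart, stood at 1.00 and 1.02 TPM, at the detection limit. Each step of the order Timp2, Timp3, Timp1 passed the test, with log2 differences of 1.52 for Timp2 over Timp3 (SE 0.21, limma, adjusted p = 0.000821) and -0.73 for Timp1 over Timp3 (SE 0.19, limma, adjusted p = 0.0134). The second of these calls ended without a filter on low genes (limma, adjusted p = 0.0557). Timp3 exceeded Timp4 by 4.76 (SE 0.19, limma, adjusted p = 7.96e-06), or by 5.60 with a pseudocount of 0.1.

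Enzymes and inhibitors were set side by side on the same scale. Mmp2 exceeded Timp2 by 0.78 (SE 0.22, limma, adjusted p = 0.0166) and Mmp14 exceeded Timp2 by 0.96 (SE 0.22, limma, adjusted p = 0.00685), whereas Timp3 exceeded Adamts5 by 3.03 (SE 0.19, limma, adjusted p = 3.07e-05). The call for Mmp2 over Timp2 ended without a filter on low genes (limma, adjusted p = 0.0552). The summed TPM of the Timp genes was 0.184 and 0.179 of that of the Mmp and Adamts genes (0.182 ± 0.00323, SD, n = 2). Against the Mmp genes alone it was 0.277 and 0.274. These ratios compare RNA, not protein or inhibitory activity. They count all transcripts of a gene, coding or not. Adamts10 alone entered at 186 and 231 TPM, of which 34.2 and 42.3 TPM lay in coding transcripts. The ratios were not computed with coding transcripts alone, and the SD given does not cover that choice.

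**Figure D3:**
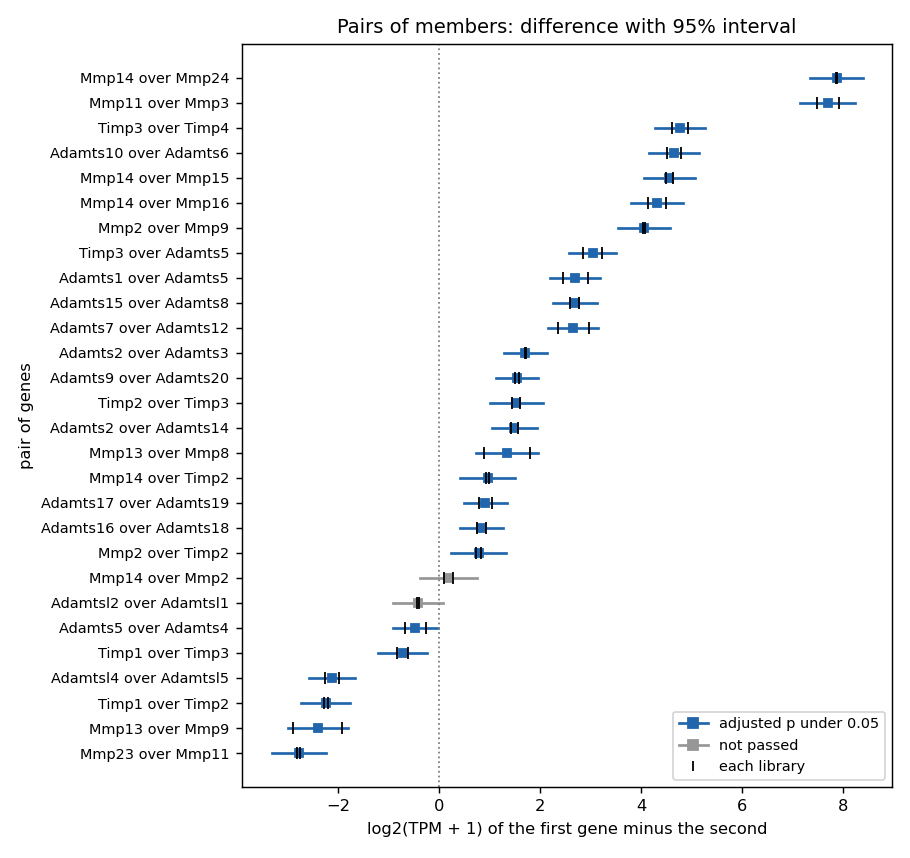
Differences in log2(TPM + 1) within the tissue for 28 pairs of members, first gene minus second; squares are means of the 2 libraries, lines 95% intervals from limma, black ticks the single libraries, and grey marks the pairs that did not pass. The grey pairs are Mmp14 over Mmp2 and Adamtsl2 over Adamtsl1, and in all 28 pairs both ticks fall on the same side of 0.

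Of the 28 pairs, 26 passed an adjusted p of 0.05 over the pairs, and the difference had the same sign in both libraries in all 28. The share of pairs of other genes that would pass was not computed, so this count does not set the members apart. In the order of all 50 genes by mean TPM, 16 of the 49 neighbouring steps had libraries that did not overlap. In 13 of the 16 the higher gene was detected. This count was not made for other genes either, so it too does not set the members apart. The steps from Mmp14 to Mmp2, from Mmp2 to Mmp11 and from Mmp11 to Adamts10 overlapped, while those from Adamts10 to Timp2 and from Timp2 to Timp3 did not. Overlap here sets the lower library of 1 gene against the higher library of the next. Within each library the order was the same: Mmp14, Mmp2, Mmp11 and Adamts10 stood at 293, 244, 199.6 and 186 TPM in replicate 1. In replicate 2 they stood at 313, 293, 251 and 231 TPM.

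Not all of this RNA was assigned to coding transcripts. Among the 38 members averaging 1 TPM or more, the leading transcript was the same in both libraries in 38 cases. Transcripts annotated as protein-coding held at least 90% of the TPM in both libraries in 23. Of the 38 members, 12 have only 1 transcript, so their leader was fixed in advance. These counts were not made for other genes. The median coding share was 97.45% and 98.39% in the members, beside 98.2% and 98.5% in protein-coding genes at that level. Coding transcripts held under 50% in both libraries in 3 of the 38 members (7.9%), Adamts10, Mmp23 and Adamtsl5. This is near the 7.20% of 13696 protein-coding genes at that level. In Adamts10 a single coding transcript held 18.4% and 18.3%, or 34.2 and 42.3 TPM. Its leading transcript, at 29.0% and 28.5%, is annotated for nonsense-mediated decay, and a retained-intron transcript held 26.6% and 28.2%. Counted by coding transcripts alone, Adamts10 stood below Timp2 and Timp3 (46.4 and 49.6 TPM), and its lead over Adamts6 was 2.24 in place of 4.65.

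In Mmp23 a short retained-intron transcript led at 43.1% and 52.1% of TPM, and coding transcripts held 36.0% and 32.8% of TPM but 60.3% and 60.8% of counts. In Adamtsl5 a retained-intron transcript led at 48.8% and 51.0%, and coding transcripts held 13.6% and 24.0%. Mmp16 was led by a transcript annotated for nonsense-mediated decay, at 39.0% and 46.3%, with 58.0% and 48.0% in coding transcripts. Adamtsl1 was led by a retained-intron transcript at 37.6% and 39.6%. Adamts7 was led by a coding transcript with 38.4% and 37.6%. Adamts9 divided its TPM between a pair of coding transcripts, at 47.4% and 44.4% for the shorter and 45.4% and 40.5% for the longer. In Adamts2 the coding transcript held 58.1% and 55.4%, and Adamts2-204, a transcript without an annotated reading frame, held 37.4% and 41.0%. Counted by coding transcripts alone, Adamts2 exceeded Adamts3 by 0.92 and Adamts14 by 0.70, in place of 1.70 and 1.49.

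Part of the difference between the libraries lay in such transcripts. Adamts1 had 11438 and 11096 counts, and its TPM was nonetheless 36.0 and 49.5. TPM in its coding transcripts was 32.5 in both libraries, and the difference sat in the retained-intron transcript Adamts1-203, with 141 and 607 counts on an effective length of 538 and 511 nucleotides. Timp3 showed the same arrangement, with 46.4 and 49.6 TPM in coding transcripts and 29.3 and 308 counts in the short transcript Timp3-203. Adamts1 and Timp3 were singled out here after their values were seen.

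**Figure D4:**
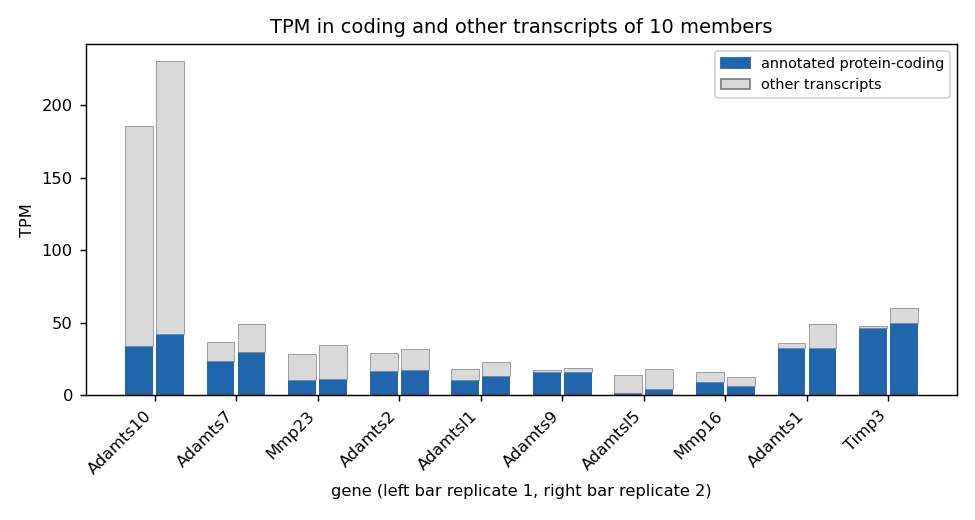
Stacked bars of TPM for the 8 members whose leading transcript held under 60% or was not protein-coding, and for Adamts1 and Timp3; the left bar of each gene is replicate 1, the right bar replicate 2, blue is TPM in transcripts annotated protein-coding and grey TPM in all others. Most of the Adamts10 bar is grey, 34.2 of 186 and 42.3 of 231 TPM being coding, and the blue parts of the Adamts1 bars are level at 32.5 TPM.

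Between the libraries, counts scaled by TMM (a correction for library composition) passed 1.5-fold in 1 of these 38 members. That member, Mmp13, was lower in replicate 2 by 2.18-fold (552 against 234 counts, 95% counting interval 1.87 to 2.55). Among 13696 protein-coding genes at that level, 5.97% passed in this direction and 1.64% in the other, or 818 and 225 genes, and with TPM in place of scaled counts 842 and 417. The 1.5-fold limit is a description, since 2 libraries of the same group hold no condition to test. Mmp13 differed while other genes of hypertrophic cartilage moved in both directions: Ibsp was 1.67-fold and Spp1 1.34-fold lower in replicate 2, whereas Col10a1 was 1.04-fold, Pth1r 1.34-fold and Ihh 1.37-fold higher. The summed TPM of these 5 markers was 478 and 472. Epidermis markers were lower in replicate 2 as well, with a summed TPM of 968 and 655. The osteoblast markers were mixed: Runx2 was 1.38-fold and Sp7 1.44-fold higher in replicate 2, whereas Dmp1 was 1.19-fold and Bglap 1.07-fold lower. The part of these other cells or genes in the Mmp13 difference was not tested.

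The rest of the members differed less, and mostly in the same direction. Scaled counts were higher in replicate 2 in 31 of the 38 (81.6%), beside 51.7% of the protein-coding genes, and the median log2 ratio was 0.12 for the members and 0.01 for those genes. The highest ratios were those of Mmp25 at 0.52, Adamtsl2 at 0.44, Adamtsl5 at 0.43, Adamts4 at 0.41 and Adamts7 at 0.40 on the log2 scale. After Mmp13, the lowest was Adamts12 at -0.23. Chondrocyte markers were higher in replicate 2 too, with a summed TPM of 2022 and 2425, in 5 of 5 cases by scaled counts. The 3 tendon markers were mixed, with Scx 1.46-fold and Mkx 1.02-fold higher and Tnmd 1.39-fold lower. Their part in the members' shift was not tested. Below the 1 TPM limit, Mmp8 was 1.82-fold higher in replicate 2 (95% counting interval 1.10 to 3.10), on 26 and 44 counts. All 5 neutrophil markers had counts in both libraries, with a summed TPM of 28.1 and 44.7. Of them Elane was 4.85-fold, Mpo 3.17-fold, Ngp 2.43-fold and S100a8 1.77-fold higher in replicate 2, and S100a9 1.22-fold lower. Their part in the Mmp8 difference was not tested.

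**Figure D5:**
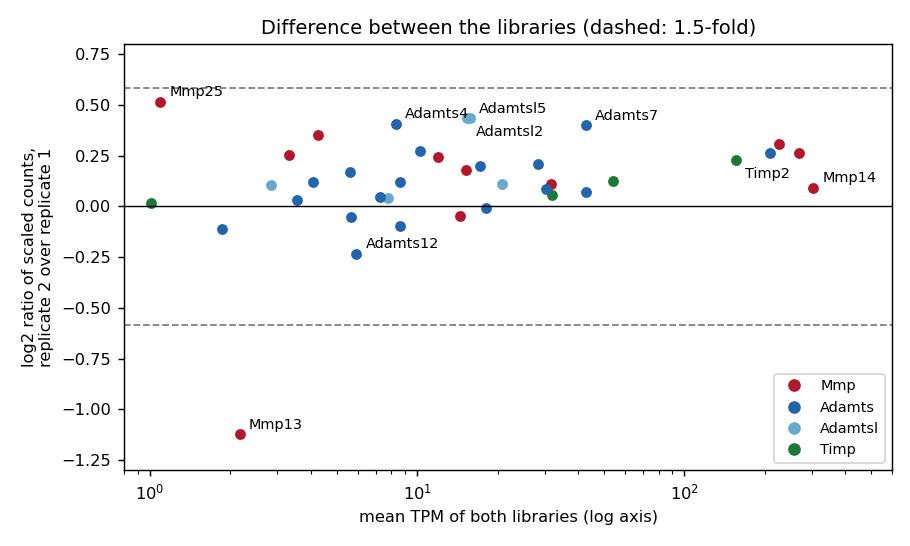
Log2 ratio of TMM-scaled counts, replicate 2 over replicate 1, against mean TPM on a log axis for the 38 members averaging 1 TPM or more, coloured by family; dashed lines mark 1.5-fold. Mmp13 at -1.12 is the only point outside the lines, and 31 of the 38 lie above 0.

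The genes that work with these families were counted from lists. Among related metalloproteases 13 of 14 were detected, led by Bmp1 as given above, Adam33 at 86.2 and 99.0 TPM, Adam15 at 66.7 and 79.7 TPM and Adam10 at 34.4 and 30.5 TPM, while Mep1b had 0 and 5 counts. Among activators and other matrix proteases 13 of 14 were detected. The highest were Bsg, an inducer of Mmp genes, at 635 and 708 TPM, the cathepsin Ctsb at 104 and 121 TPM, Htra1 at 103 and 83.3 TPM and Ctsl at 92.0 and 67.5 TPM. Plg, the plasminogen gene of liver, had 33 and 6 counts. All 12 genes of a list of other inhibitors, clearance and related genes were detected. The highest was Pcolce as given above, which is the enhancer of Bmp1 and not an inhibitor. It was followed by the endocytic receptor Lrp1 at 217 and 222 TPM and by the protease inhibitor Serpine2 at 89.6 and 96.7 TPM. Next came Reck, a membrane-anchored Mmp inhibitor, at 55.0 and 58.9 TPM. Reck thus stood near Timp3 in TPM. Of the substrates 13 of 14 were detected, led by the 3 collagens above and by Fn1 at 521 and 521 TPM, while the brain proteoglycan Ncan stood at 0.49 and 0.47 TPM.

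Some members share sequence with a neighbour on the opposite strand. Of the 37 detected genes, 8 share exon bases with a gene on the opposite strand and 0 with one on the same strand. Among them are Mmp11 with Chchd10 (155 bases), Timp3 with Syn3 (1733), Timp4 with Syn2 (90), Adamts7 with Tbc1d2b (122), Adamts9 with A730049H05Rik (1381) and Gm15737 (424), Mmp28 with 1700020L24Rik (466) and Adamts8 with Gm29724 (489). The libraries are stranded, but whether the counting used the strand is not stated in the labels or headers, so the levels of these 8 are less certain.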

How the data were processed

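Limb RNA of 1 group was read in 2 libraries. Per the text deposited with the tables, they were made on mm10 with GENCODE M4; the quantification program was not given in the sources used here. Deposited columns are, per the file headers, an expected count (reads that fit several genes are divided), TPM, posterior mean TPM with its interval bounds (a score here), an effective length, and in transcript tables the percent share of each transcript. GENCODE M21, which is on GRCm38 like mm10, supplied names and coordinates by gene identifier; 884 of 43346 rows had no match. Rows of spike-ins, tRNAs and phiX were not used.

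The members and lists were chosen with earlier results of these data known. Expected counts were rounded and scaled by TMM in edgeR 4.0.16 (DESeq2 1.42.0 size factors as an alternative), with a prior count of 0.5. Pairs of genes were compared by an intercept-only fit in limma 3.58.1 to log2(TPM + 1) over 15058 genes that averaged 1 TPM or were in a pair, with a trend, 5.38 degrees of freedom, two-sided p and Benjamini-Hochberg adjustment over the 28 pairs. Named were all members at 1 TPM, all pairs, Timp and cluster genes, members past 1.5-fold, the 4 highest and the undetected genes of each list, and transcripts of members whose leading transcript held under 60% or was not coding. Others are marked as chosen after their values were seen. R 4.3.3 and pandas 2.3.3 were used. The partner of 1 overlapping gene is not reported here.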

Additional observations from a re-analysis of the deposited data

How the results depend on the processing

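The count of 37 detected members was 39 at a limit of 0.5 TPM, 34 at 2 TPM, 37 with posterior mean TPM, 37 with coding transcripts only (an alternative chosen after seeing the data), and 37 to 38 when either library was left out. With genes of at least 10 counts in place of 1 TPM, 3 of 42 members passed 1.5-fold between the libraries, Mmp13, Mmp3 and Mmp8. Of these, 1 was higher and 2 were lower in replicate 2. Among all 16688 protein-coding genes with that many counts, 757 passed higher and 1469 lower, so this count does not set the members apart. The Timp ratio was 0.195 with CPM in place of TPM, and 0.179 to 0.184 with either library left out. It was not computed with coding transcripts alone. Of 28 pairs, 26 passed with a pseudocount of 0.1, posterior means or the within-library difference, 22 without a filter on low values and 24 with coding transcripts only. Without the filter, Mmp2 over Timp2 (limma, adjusted p = 0.0552) and Mmp13 over Mmp8 (limma, adjusted p = 0.0742) no longer passed. Neither did Timp1 over Timp3 (limma, adjusted p = 0.0557) nor Adamts5 over Adamts4 (limma, adjusted p = 0.122). The log2 differences of these pairs did not change, while the degrees of freedom fell from 5.38 to 1.68, with 43346 rows in the fit. The SE rose for Mmp13 over Mmp8 (0.244 to 0.307) and fell for the others, as for Mmp2 over Timp2 (0.220 to 0.141). No pair changed direction under these settings or with either library left out. In a single library 25 pairs stayed within their error and 3 moved. Replicate 1 alone and replicate 2 alone gave -1.92 and -2.89 for Mmp13 over Mmp9. They gave 1.79 and 0.89 for Mmp13 over Mmp8, and 2.35 and 2.96 for Adamts7 over Adamts12. No paired analysis was possible because the 2 libraries form a single group, so that no samples of different groups could be paired; the within-library difference pairs genes. Depth limits the chromosome 9 cluster: 7 of its 9 genes had 16 counts or fewer, and for Mmp3 (16 and 6 counts) the 95% counting interval of the ratio of replicate 2 to replicate 1 ran from 0.130 to 1.09.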
